A study of Mus musculus with 12 samples.

Results

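A group of 10 regulatory genes of the dorsal forebrain, the pallium, and of its excitatory neurons was followed across sorted cortical interneurons as a test for cells that are not GABAergic. The genes are Neurog2, Eomes, Neurod1, Neurod2, Neurod6, Tbr1, Lhx2, Emx1, Emx2 and Bcl11b. The members were the probe sets, the groups of short oligonucleotides that read 1 transcript on the array, whose single gene symbol is one of these names. No filter on the level was applied. All 10 genes were measured, by 15 of the 22339 probe sets with 1 gene symbol, which together cover 11358 genes.

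The study set migrating interneurons of the medial ganglionic eminence (MGE) against those of the caudal ganglionic eminence (CGE), both sorted by fluorescence from mouse embryonic cortex. MGE cells were taken at E18.5 and E14.5 from embryos that carried the Nkx2-1-Cre transgene (Nkx2-1-Cre Tg) and the reporter R26R-YFP fl/fl, in which cells with an Nkx2-1 history carry YFP. CGE cells came from Nkx2-1-Cre;Dlx1-lox-Venus-lox embryos at E18.5 and E16.5, in which Venus is driven by Dlx1 and deleted wherever Nkx2-1-Cre was active, so cells of the lateral eminence keep it as well. The groups thus share the Nkx2-1-Cre allele, differ in the reporter, were on a mixed C57BL/6/CBA background with both sexes, and held 3 arrays each of RNA from pooled embryos, 12 arrays in all. Because the earlier MGE and CGE samples were taken on different days, lineage and day cannot be told apart in that pair. Where the text gives an adjusted p, it comes from limma with Benjamini-Hochberg adjustment over the 22339 probe sets, and a probe set was called at an adjusted p under 0.05.

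In the pallium, Lhx2, Emx1 and Emx2 are transcription factors of the dividing progenitors. Neurog2 starts the excitatory neuronal programme, Eomes (also called Tbr2) marks intermediate progenitors, the Neurod factors act in the newborn neurons, and Tbr1 in early postmitotic neurons of the deep layers. This cascade runs in glutamatergic neurons and not in the interneurons that migrate in from the ganglionic eminences. Bcl11b, also called Ctip2, is known from deep-layer projection neurons but equally from striatal and cortical GABAergic neurons, and Lhx2 is also used by progenitors outside the pallium.

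Levels are log2 intensities, and the 40th percentile of an array, 7.10 to 7.17 over the 12 arrays, is given beside them as a mark of dimness. It is not a detection limit, and whether a dim gene was transcribed at all cannot be read from these values. Bcl11b lay above the mark on 12 arrays with all of its 4 probe sets, Neurod2 on 11, Lhx2 on 10, Neurod6 on 4, Tbr1 on 2 and Emx2 on 1. Neurog2, Eomes, Neurod1 and Emx1 lay above it on 0 arrays. As a check of the labelled cell type, 8 measured genes of GABAergic neurons, among them those of the Dlx and GABA synthesis families, lay above it on every array of the 4 groups. For the Dlx genes on the CGE arrays this is no separate check, since those cells were sorted on Venus driven by Dlx1. Probe sets differ in how strongly they bind, so these counts do not rank the genes by expression or give a share of cells.

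**Figure D1:**
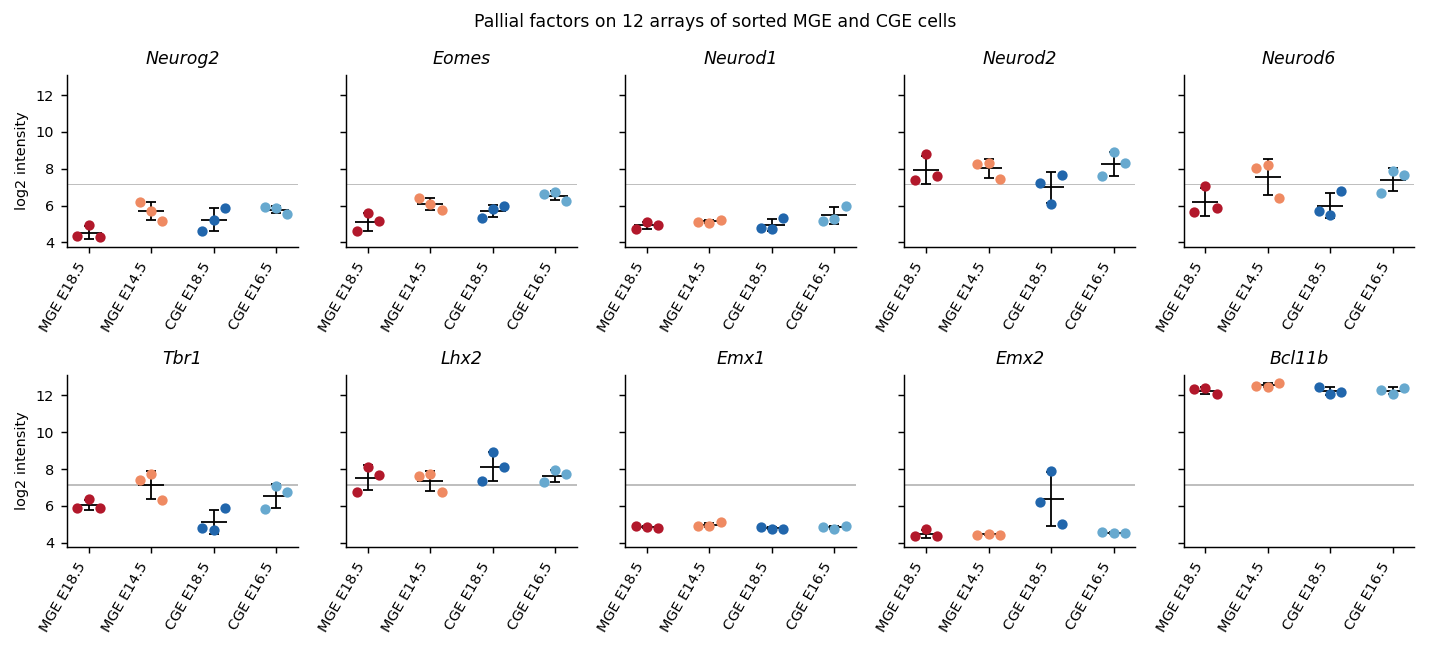
Log2 intensity of the 10 factors (1 probe set per gene) on the 12 arrays, with 1 panel per gene, 1 point per array, and bars for the group mean and SD (n = 3). The grey line marks the 40th percentile of the arrays. Bcl11b sits at 12.06 to 12.69 in all groups, Emx2 departs from a level below 5 only in CGE cells at E18.5, and Neurod6 and Tbr1 spread widely within groups.

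Emx2 and the neuronal factors Neurod2 and Neurod6 are the members whose arrays differed most within a group, and the 250 bases before the start of each are shown with every E-box, the CANNTG site that factors of the Neurog and Neurod class bind, in capitals. The sequences are those of the coding strand from RefSeq on GRCm38.p6, at chr11:98329646-98329895 (minus strand) for Neurod2, chr6:55681264-55681513 (minus strand) for Neurod6 and chr19:59458440-59458689 (plus strand) for Emx2.
Neurod2: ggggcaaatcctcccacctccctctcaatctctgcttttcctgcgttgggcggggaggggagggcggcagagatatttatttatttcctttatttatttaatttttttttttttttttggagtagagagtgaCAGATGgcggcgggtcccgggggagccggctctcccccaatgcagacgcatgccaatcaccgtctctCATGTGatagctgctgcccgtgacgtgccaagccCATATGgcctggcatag
Neurod6: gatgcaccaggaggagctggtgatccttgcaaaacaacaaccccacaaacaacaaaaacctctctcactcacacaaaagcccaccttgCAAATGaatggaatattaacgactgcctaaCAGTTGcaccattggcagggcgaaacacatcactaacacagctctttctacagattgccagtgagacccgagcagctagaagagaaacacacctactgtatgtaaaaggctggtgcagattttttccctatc
Emx2: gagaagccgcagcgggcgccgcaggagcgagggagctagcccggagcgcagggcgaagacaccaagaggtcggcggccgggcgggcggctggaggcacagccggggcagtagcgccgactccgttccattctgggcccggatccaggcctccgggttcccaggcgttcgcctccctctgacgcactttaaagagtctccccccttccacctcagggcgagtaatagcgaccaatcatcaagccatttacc
The Neurod2 window held 3 E-boxes, 1 of them of the form CAGATG that is known from Neurod targets, the Neurod6 window held 2 and the Emx2 window held 0. Tbr1, Emx1 and Neurod1 had 1 each. For comparison, CANNTG, which reads alike on both strands, occurred in 66.2% of 32851 mouse promoter windows of 250 bases, and CAGATG on either strand in 14.4%. A match of letters is a description and says nothing on binding.

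Neurog2 and Eomes, the earliest steps of the excitatory cascade, were lower in MGE cells at E18.5 than at E14.5. Neurog2 (chr3:127632733-127635636, GRCm38.p6), the proneural factor of pallial progenitors, read 4.35, 4.93 and 4.32 in MGE cells at E18.5, against 6.18, 5.71 and 5.18 in MGE cells at E14.5. The groups did not overlap, although every value lay below the 40th percentile. The difference was -1.15 ± 0.32 (SE, n = 3 each; 95% interval -1.85 to -0.46), a 2.22-fold lower intensity (adjusted p = 0.0264, limma).

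Neurog2 in CGE cells read 4.60, 5.20 and 5.85 at E18.5, against 5.91, 5.85 and 5.55 at E16.5. These groups overlapped, with replicate 3 at E18.5 inside the range of the earlier day. The difference of -0.55 ± 0.32 had an interval of -1.25 to 0.14 and did not pass the test (adjusted p = 0.314, limma). Between lineages, MGE minus CGE, Neurog2 differed by -0.68 ± 0.32 at E18.5 (adjusted p = 0.151) and by -0.09 ± 0.32 on the earlier days (adjusted p = 0.925). Neither difference passed.

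Eomes (chr9:118478186-118486132), the T-box factor of intermediate progenitors, followed the same order. Its probe set with the higher mean, 1435172_at, read 4.61, 5.59 and 5.17 in MGE cells at E18.5, against 6.39, 6.09 and 5.74 in MGE cells at E14.5. Again the groups did not overlap, although the highest E18.5 array came close to the lowest E14.5 array. The difference was -0.95 ± 0.27 (SE, n = 3 each; 95% interval -1.53 to -0.37), or 1.93-fold lower (adjusted p = 0.028, limma). The other probe set, 1426001_at, gave -0.35 ± 0.26 and was not called (adjusted p = 0.396), with replicate 2 at E18.5 the highest of those 6 arrays at 5.66.

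In CGE cells the same Eomes probe set read 5.32, 5.82 and 5.98 at E18.5, against 6.61, 6.74 and 6.25 at E16.5. The groups did not overlap on this probe set or on the other one, which gave -0.83 ± 0.27 and -0.83 ± 0.26. Both were short of the threshold (adjusted p = 0.0802 and 0.0729, limma). MGE minus CGE, the higher-mean probe set of Eomes gave -0.58 ± 0.27 at E18.5 and -0.46 ± 0.27 on the earlier days. The other probe set gave 0.21 ± 0.26 at E18.5, the opposite direction, and -0.28 ± 0.26 on the earlier days. None of these lineage differences was called. RefSeq places Gm33408 over bases of Eomes, and whether the probes read it was not examined.

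The calls for Neurog2 and Eomes in MGE cells turned on single arrays. Without MGE E14.5 replicate 1, MGE E14.5 replicate 2, MGE E18.5 replicate 1 or MGE E18.5 replicate 3, the difference of Neurog2 was -0.91, -1.14, -1.06 and -1.04 (adjusted p 0.111, 0.0761, 0.0841 and 0.0964), and that of Eomes was -0.79, -0.94, -0.69 and -0.97 (adjusted p 0.113, 0.0807, 0.104 and 0.071). MGE E14.5 replicates 1 and 2 were also the closest pair of arrays in the series, with an SD of their log2 differences of 0.231 against 0.375 to 0.518 for other replicate pairs. Counted as 1 sample, they left -1.03 for Neurog2 and -0.86 for Eomes (adjusted p = 0.0887 and 0.0937, limma). The direction was negative in each of these fits.

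Counted on the highest-mean probe set of each gene, 2 of the 10 were lower and 0 higher in MGE cells at E18.5 than at E14.5. Of all genes 19.1% were called in this comparison and 7.5% were called as lower. Bcl11b was also called as lower on its probe set 1438784_at (-0.46, adjusted p = 0.0391, limma). The E18.5 and E14.5 values of 3 of the 10 did not overlap, all with E18.5 lower, against 46.7% of all genes without overlap in either direction. An unadjusted p under 0.05 (limma) was found for 4 of the 10, against 32.6% of all genes. The median difference was -0.25 for the 10 genes and -0.05 for all genes. The share of the 10 called as lower was above that of all genes, on 2 genes whose calls turned on single arrays, and the share without overlap was below it.

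Neurod1, Neurod2, Neurod6 and Tbr1 belong to the steps that follow. Neurod6 (chr6:55677818-55681263), a bHLH factor of newborn and differentiated pyramidal neurons, read 5.67, 7.04 and 5.87 in MGE cells at E18.5, against 8.07, 8.20 and 6.41 in MGE cells at E14.5. In CGE cells it read 5.70, 5.51 and 6.79 at E18.5, against 6.68, 7.90 and 7.64 at E16.5. In both lineages 1 late array reached into the range of the earlier day, so the groups overlapped. The MGE difference was -1.36 ± 0.54 and the CGE difference -1.41 ± 0.54, and neither passed the test (adjusted p = 0.103 and 0.132, limma).

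Tbr1 (chr2:61802863-61814114), the T-box factor of early-born deep-layer neurons, read 5.90, 6.38 and 5.88 in MGE cells at E18.5, against 7.43, 7.74 and 6.29 in MGE cells at E14.5. In CGE cells it read 4.80, 4.70 and 5.89 at E18.5, against 5.83, 7.09 and 6.75 at E16.5. The overlap rested on 1 array of each group. The differences were -1.10 ± 0.43 in MGE cells (95% interval -2.04 to -0.16, adjusted p = 0.0993) and -1.43 ± 0.43 in CGE cells (95% interval -2.36 to -0.49, adjusted p = 0.0638).

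These values near the threshold also turned on single arrays. Without MGE E14.5 replicate 3, the lowest of its group for both genes, both were called as lower in MGE cells at E18.5 than at E14.5, Neurod6 at -1.94 (adjusted p = 0.0234) and Tbr1 at -1.53 (adjusted p = 0.0289, limma). In CGE cells, Tbr1 was called without MGE E14.5 replicate 3 (-1.43, adjusted p = 0.0418), without CGE E16.5 replicate 1 (-1.79, adjusted p = 0.0365) and without CGE E18.5 replicate 3 (-1.81, adjusted p = 0.0338).

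Neurod2 (chr11:98325415-98329645), the bHLH factor of maturing cortical neurons, read 7.41, 8.80 and 7.62 in MGE cells at E18.5, against 8.28, 8.34 and 7.43 in MGE cells at E14.5. In CGE cells it read 7.25, 6.06 and 7.64 at E18.5, against 7.60, 8.90 and 8.29 at E16.5. Both pairs overlapped, and CGE E18.5 replicate 2 was the lowest of the 12 arrays and the only one below the 40th percentile. The differences were -0.07 ± 0.48 in MGE cells and -1.28 ± 0.48 in CGE cells (adjusted p = 0.938 and 0.127, limma).

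Neurod1 (chr2:79452637-79456636), which acts between Eomes and Neurod2 in the cascade, lay below the 40th percentile throughout, from 4.73 to 5.98 on probe set 1426412_at and from 3.61 to 4.14 on 1426413_at. Both probe sets were called in 0 comparisons. In CGE cells at E18.5 against E16.5, 1426412_at differed by -0.53 ± 0.22 (unadjusted p = 0.036, adjusted p = 0.172, limma) and 1426413_at by -0.35 ± 0.12 without overlap (unadjusted p = 0.0143, adjusted p = 0.102, limma). In MGE cells at E18.5 against E14.5, 1426413_at differed by -0.27 ± 0.12 with overlap (unadjusted p = 0.0489, adjusted p = 0.154, limma).

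The counts here take the highest-mean probe set of each gene. In CGE cells at E18.5 against E16.5, 1 of the 10 genes was called, Emx2 as higher, and 0 as lower. Of all genes 8.23% were called, 3.79% as higher. Without a call, 8 of the 10 differences were below 0 and 6 of the 10 genes, Emx2 among them, had an unadjusted p under 0.05, against 23.8% of all genes. The median difference was -0.54 for the 10 genes and -0.06 for all genes. Eomes and Emx2 were the 2 of 10 without overlap, against 24.2% of all genes. Among the other probe sets, Bcl11b 1452966_at was called as lower (-0.51, adjusted p = 0.0357, limma). That probe set and Neurod1 1426413_at also showed no overlap.

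**Figure D2:**
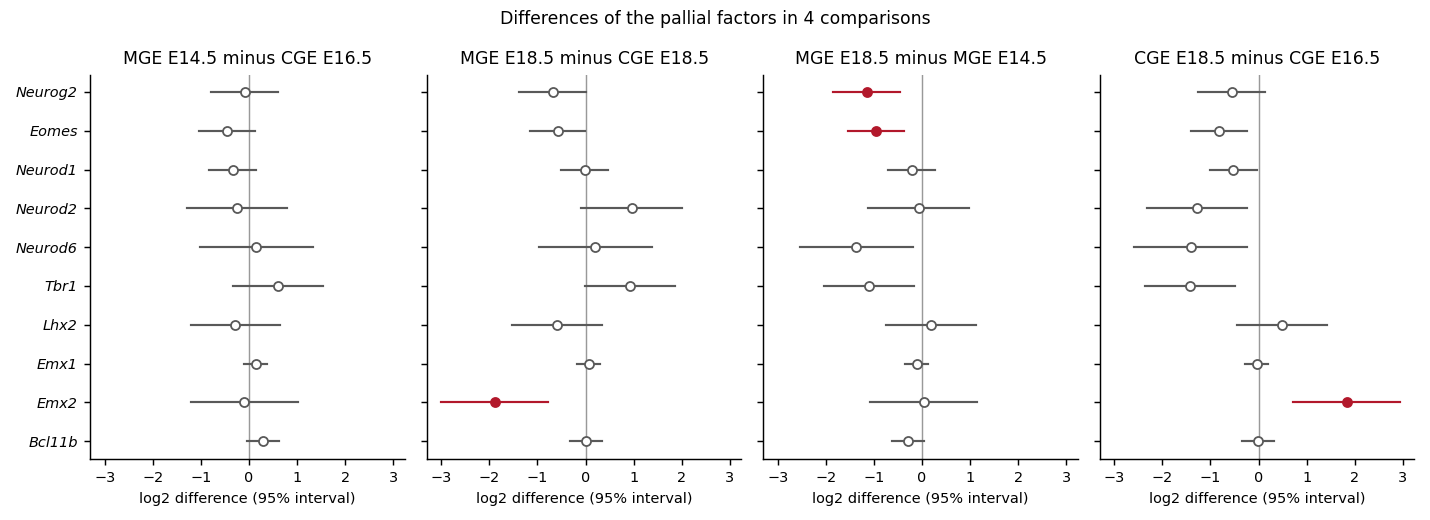
Log2 difference of each factor, on its highest-mean probe set, with its 95% interval (limma, n = 3 arrays per group) in 4 comparisons. The subtraction is given above each panel. Filled red points passed the adjusted threshold, namely Emx2 in CGE cells at E18.5 from both sides, at -1.89 and 1.83, and Eomes and Neurog2 in MGE cells between the days.

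Within groups, the arrays departed from their means together for Neurod2, Neurod6 and Tbr1. Neurod6 and Tbr1 deviated in the same direction on 12 of 12 arrays, with a correlation of the deviations from the group means of r = 0.95 (Spearman's rho 0.90, and r = 0.96 without the 2 farthest arrays). Neurod2 deviated with Neurod6 (r = 0.88) and with Tbr1 (r = 0.82) on 11 of 12 arrays each. Neurod1 followed them less closely, at r = 0.39, 0.42 and 0.43 with Neurod2, Neurod6 and Tbr1, and shared their direction on 6, 7 and 7 arrays. Eomes deviated with Neurog2 (r = 0.84, 10 of 12 arrays) and with Lhx2 (r = 0.77, 9 of 12). Without the 2 farthest arrays, r was 0.86 with Neurog2 and 0.58 with Lhx2. Neurog2 and Eomes were not apart from the later factors. Without the 2 farthest arrays, r was 0.55 for Neurog2 with Neurod6, 0.70 for Neurog2 with Tbr1 and 0.48 for Eomes with Neurod6. Over all 12 arrays, Neurog2 deviated with Neurod6 at r = 0.69 and with Tbr1 at r = 0.62 (10 of 12 arrays each), and Eomes with Neurod6 at r = 0.64 (8 of 12). Correlations of this size were not limited to the cascade, as Bcl11b and Emx1 had r = 0.82 and the same direction on 12 of 12 arrays. These are descriptions over 12 arrays that share their normalisation and the amplification of each sample, and no p is given.

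Tbr1 itself had Neurod6 as the gene with the most similar pattern among 8791 genes, at r = 0.92 for levels over the 12 arrays and r = 0.95 for deviations. This pair was singled out after its values were seen. For Neurod2, Neurod6 and Tbr1 alike, the lowest array of its group was replicate 3 of MGE E14.5, replicate 2 of CGE E18.5 and replicate 1 of CGE E16.5. The highest was replicate 2 of MGE E18.5, MGE E14.5 and CGE E16.5 and replicate 3 of CGE E18.5. In a bulk sample, fewer cells of a type and less RNA per cell cannot be told apart.

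**Figure D3:**
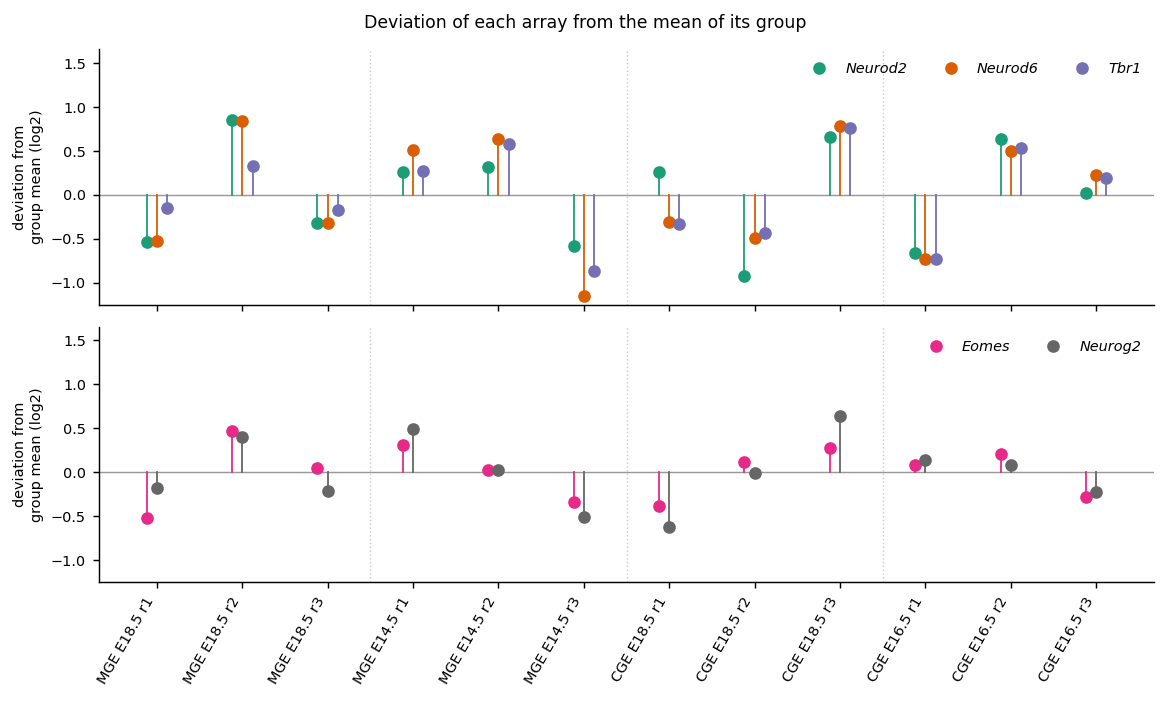
Deviation of each array from the mean of its group, in log2, for Neurod2, Neurod6 and Tbr1 (upper panel) and for Eomes and Neurog2 (lower panel), with 1 stem per gene and array and dotted lines between groups. Neurod6 and Tbr1 lie on the same side of 0 on all 12 arrays, and Neurod2 parts from them on CGE E18.5 replicate 1.

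Markers of other cells were set beside these deviations. The mean of 19 further pallial glutamatergic genes deviated with Tbr1 at r = 0.07 and with Neurod6 at r = -0.01, and the mean of 5 genes of Cajal-Retzius cells, the early neurons of the marginal zone, at r = 0.46 and 0.42. Of 6 vascular markers 2 were measured, Rgs5 and Flt1, and their mean deviated with Tbr1 at r = 0.83 and with Neurod6 at r = 0.77. Among the 10 lists compared, this was the highest r for both genes. The lowest was that of genes of the lateral eminence and striatum, at r = -0.56 with Tbr1 and -0.41 with Neurod6. Flt1 read 4.31 to 4.88 on all arrays and Rgs5, a gene of pericytes, 4.56 to 7.93. The vascular mean thus rests on Rgs5 and is not a measure of vascular cells as such. The summed log2 level of this pair ran from 12.04 to 12.58 in MGE cells at E18.5, 8.96 to 9.73 in MGE cells at E14.5, 10.49 to 12.45 in CGE cells at E18.5 and 9.81 to 10.45 in CGE cells at E16.5, so it was higher on the days on which Neurod6 and Tbr1 had lower means. The part of any such cells in the spread of the neuronal factors was not tested.

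Emx2 (chr19:59458690-59465357), a homeobox factor of cortical progenitors, stood out in 1 group. It read 4.38, 4.74 and 4.34 in MGE cells at E18.5, against 6.22, 7.90 and 5.01 in CGE cells at E18.5. MGE cells at E14.5 read 4.43, 4.49 and 4.44, and CGE cells at E16.5 read 4.61, 4.53 and 4.50. The late CGE arrays lay above the other 9, differed among themselves with an SD of 1.45, and only replicate 2 passed the 40th percentile.

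At E18.5 Emx2 was 3.70-fold lower in MGE than in CGE cells (-1.89 ± 0.51 SE, n = 3 each, 95% interval -3.00 to -0.78, adjusted p = 0.0205, limma). On the highest-mean probe set of each gene, it was the only one of the 10 called in this comparison. Of all genes 21.8% were called, 9.02% as lower. It was also the only one without overlap, against 36.6% of all genes. Among the other probe sets, Bcl11b 1452966_at was called as higher in MGE cells (0.80, adjusted p = 0.000987, limma), without overlap. An unadjusted p under 0.05 (limma) was found for 2 of the 10 genes, against 34.4% of all genes. The median difference was 0.00 for the 10 genes and -0.02 for all genes. Without CGE E18.5 replicate 2 the difference of Emx2 was -1.13 (adjusted p = 0.0188, limma). The call of Emx2 was lost without MGE E18.5 replicate 1 (-1.84, adjusted p = 0.06) or MGE E18.5 replicate 3 (-1.82, adjusted p = 0.0647, limma).

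Against E16.5, Emx2 was 3.56-fold higher in CGE cells at E18.5 (1.83 ± 0.51, 95% interval 0.72 to 2.94, adjusted p = 0.0491, limma). This call held without CGE E18.5 replicate 3 (2.51, adjusted p = 0.0059) and was lost when any 1 of the other 11 arrays was left out, with adjusted p between 0.0638 and 0.131. The difference was 1.07 without CGE E18.5 replicate 2 and between 1.81 and 1.91 without each of the other 10. Late minus early, the lineage difference of Emx2 changed by -1.79 ± 0.72 and was not called (adjusted p = 0.152), but it was called without CGE E18.5 replicate 3 (-2.48, adjusted p = 0.011).

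Because these comparisons share the CGE E18.5 arrays, they are not separate evidence for Emx2. The genes whose levels over the 12 arrays were most similar to Emx2 were Pif1 (r = 0.97), Lin9 (r = 0.94) and Cep57 (r = 0.93), out of 8791 genes. For Eomes they were Mark4 (r = 0.94), Auts2 (r = 0.93) and Stoml1 (r = 0.93), and for Neurog2 they were Kctd15 (r = 0.91), Gpsm1 (r = 0.91) and Rgp1 (r = 0.90). They are given as a description only.

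Emx1 (chr6:85187931-85204463), the pallial relative of Emx2, did not share its pattern. Its values ran from 4.75 to 5.11 over the 12 arrays, and its differences lay between -0.11 and 0.14 in the 4 pairwise comparisons, with 0 calls. The 95% intervals of these differences stayed between -0.35 and 0.37, and in 0 of them was the unadjusted p under 0.05. For a probe set this dim, they describe its readings and do not bound a change of the transcript.

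Lhx2 (chr2:38339271-38369737), a LIM-homeobox factor of forebrain progenitors, was above the 40th percentile on most arrays. It read 6.77, 8.13 and 7.70 in MGE cells at E18.5, against 7.35, 8.92 and 8.09 in CGE cells at E18.5. On the earlier days it read 7.62, 7.72 and 6.73 in MGE cells at E14.5, against 7.28, 7.93 and 7.71 in CGE cells at E16.5. All groups overlapped, and Lhx2 was called in 0 comparisons, the largest difference being -0.59 ± 0.43 between MGE and CGE cells at E18.5 (95% interval -1.52 to 0.35, adjusted p = 0.361, limma). In 0 comparisons did Lhx2 have an unadjusted p under 0.05. RefSeq places Gm27197 and Gm13584 over the same bases, and whether the probes read them was not examined.

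Bcl11b (chr12:107910403-108004145), a zinc finger factor, lay above the 40th percentile throughout. Its probe set with the highest mean, 1435227_at, read 12.35, 12.38 and 12.06 in MGE cells at E18.5 and 12.49, 12.48 and 12.69 in MGE cells at E14.5, against 12.49, 12.10 and 12.16 in CGE cells at E18.5 and 12.30, 12.07 and 12.42 in CGE cells at E16.5. The MGE E14.5 arrays lay above the MGE E18.5 and the CGE E16.5 arrays without overlap. The 4 pairwise differences of this probe set lay between -0.29 and 0.29, and 0 of them passed the test or had an unadjusted p under 0.05. For example, MGE and CGE cells at E18.5 differed by 0.02 ± 0.15 (95% interval -0.32 to 0.35, adjusted p = 0.952, limma).

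The other probe sets of Bcl11b did not all follow. Probe set 1452966_at read 11.32, 11.31 and 11.09 in MGE cells at E18.5, against 10.60, 10.34 and 10.37 in CGE cells at E18.5. On the earlier days the values were 11.62, 11.44 and 11.76 for MGE cells at E14.5, against 10.98, 10.87 and 11.01 for CGE cells at E16.5. MGE arrays lay above CGE arrays at both stages without overlap, by 0.80 ± 0.13 at E18.5 (adjusted p = 0.000987) and by 0.65 ± 0.13 on the earlier days (adjusted p = 0.00875, limma).

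In CGE cells the same probe set was lower at E18.5 than at E16.5, with a difference of -0.51 ± 0.13 (adjusted p = 0.0357). Probe set 1438784_at was higher in MGE cells at E14.5 than in CGE cells at E16.5 (0.53 ± 0.14, adjusted p = 0.0388) and lower in MGE cells at E18.5 than at E14.5 (-0.46 ± 0.14, adjusted p = 0.0391). The fourth, 1450339_a_at, was called in 0 comparisons. Between MGE cells at E14.5 and CGE cells at E16.5 the 4 probe sets differed in 1 direction, with 0.29, 0.53, 0.65 and 0.18 on 1435227_at, 1438784_at, 1452966_at and 1450339_a_at, of which 2 were called. At E18.5 the MGE minus CGE differences were 0.02, 0.29, 0.80 and -0.15 in the same order, of which 1 was called. In MGE cells, E18.5 minus E14.5 gave -0.29, -0.46, -0.36 and -0.53 in that order, with only 1438784_at called. All 4 showed no overlap in that comparison, where 46.7% of all genes showed none. The transcripts that each probe set reads were not examined.

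**Figure D4:**
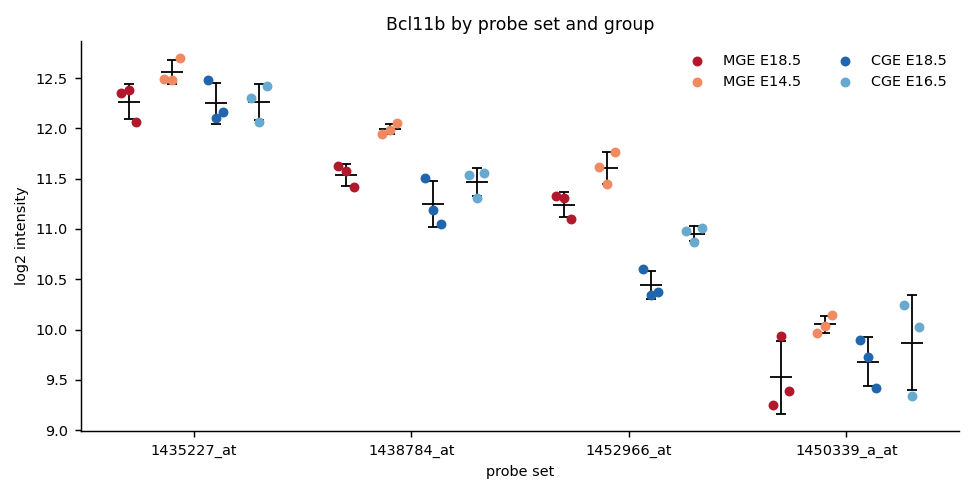
Log2 intensity of the 4 Bcl11b probe sets by group, with 1 point per array and bars for the mean and SD (n = 3). On 1452966_at the MGE arrays lie above the CGE arrays of both stages, by 0.80 at E18.5 and 0.65 on the earlier days, while on 1435227_at the 4 pairwise differences lie between -0.29 and 0.29, with the MGE E14.5 arrays above those of MGE E18.5 and CGE E16.5.

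MGE cells at E14.5 and CGE cells at E16.5 were compared on the highest-mean probe set of each gene. Of the 10 genes 0 were called, against 8.06% of all genes (limma). An unadjusted p under 0.05 was found for 0 of the 10, against 20.4% of all genes. The largest difference on these probe sets was that of Tbr1, 0.60 ± 0.43 (95% interval -0.34 to 1.53, adjusted p = 0.494, limma). Among the other probe sets, 2 of Bcl11b were called as higher in MGE cells, as given above. The values of 3 of the 10 did not overlap, Bcl11b and Emx1 higher and Emx2 lower in MGE cells, against 31.1% of all genes. For the late minus the early lineage difference, 0 of the 10 genes were called, against 8.73% of all genes (limma). Here 1 gene, Emx2, had an unadjusted p under 0.05, against 22.1% of all genes.

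Other genes of pallial excitatory neurons were measured for 19 of 26 on a list, among them the vesicular glutamate transporter Slc17a6. Slc17a6, named here for its role and not for a call, read 3.66 to 5.0 and lay above the 40th percentile on 0 of the 12 arrays. At E18.5, 5 of the 19 were higher and 0 lower in MGE than in CGE cells (21.8% of all genes were called). Those with the largest differences were Zfpm2 (2.05 ± 0.22, above the 40th percentile on 0 of the 12 arrays), Mef2c (1.73 ± 0.20), Cux2 (1.60 ± 0.22) and Cux1 (1.23 ± 0.13). Mef2c, Cux1 and Cux2 are also known from MGE interneurons. On the earlier days 5 were higher and 2 lower in MGE cells, led by Zfpm2 (1.63 ± 0.22) and Cux2 (1.61 ± 0.22) among the higher and Pou3f2 (-1.25 ± 0.27) and Rnd2 (-0.87 ± 0.19) among the lower (8.06% of all genes).

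Between days, 4 of the 19 were higher and 2 lower in MGE cells at E18.5 than at E14.5 (19.1% of all genes), with Pou3f2, a POU factor of progenitors and upper-layer neurons, at 2.44 ± 0.27 and Sox5, a factor of deep-layer neurons, at 1.80 ± 0.33. In CGE cells 1 was higher and 2 lower at E18.5 than at E16.5 (8.23% of all genes), again Pou3f2 (1.68 ± 0.27) and, among the lower, Nrn1 (-1.67 ± 0.27) and Cux1 (-0.69 ± 0.13). The median difference of the 19 was 0.17 in MGE cells and -0.08 in CGE cells. For all genes it was -0.05 and -0.06.

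Reln, which encodes the extracellular protein of Cajal-Retzius cells and is also made by interneurons, was lower at E18.5 in both lineages. It read 8.21, 8.38 and 7.58 in MGE cells at E18.5, against 11.22, 10.83 and 10.80 at E14.5 (-2.89 ± 0.39, adjusted p = 0.000332, limma). In CGE cells it read 8.03, 6.40 and 8.14 at E18.5, against 10.61, 10.83 and 11.17 at E16.5 (-3.34 ± 0.39, adjusted p = 0.00155, limma). Of 9 Cajal-Retzius genes 5 were measured, and at E18.5 1 was higher and 1 lower in MGE cells (19.1% of all genes were called), and 2 were lower in CGE cells (8.23%). Calb2, which encodes the calcium-binding protein calretinin and is also made by interneurons, was the higher one in MGE cells (1.31 ± 0.29, adjusted p = 0.0097, limma). Ndnf was lower in CGE cells, with Reln (-2.83 ± 0.46, adjusted p = 0.0072, limma). Cacna2d2 and Ebf3 were called in neither lineage between the days.

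Markers of other cell types moved with the same groups. All 10 oligodendrocyte precursor genes were higher in MGE cells at E18.5 than in MGE cells at E14.5 and in CGE cells at E18.5. Of all genes 19.1% and 21.8% were called in these comparisons. The summed log2 level of the 10 was 106.2 to 114.3 in MGE cells at E18.5, against 66.7 to 69.2 in MGE cells at E14.5, 60.8 to 62.8 in CGE cells at E18.5 and 56.5 to 59.3 in CGE cells at E16.5. In MGE cells between the days, 7 of the 8 GABAergic genes were lower (median -0.62), as Neurog2 and Eomes were, against 7.5% of all genes. Between the days 19.1% of all genes were called in MGE cells and 8.23% in CGE cells. Of 6 microglial genes 3 were measured, and all 3 were higher at E18.5 in both lineages. Of 11 measured radial glia and progenitor genes, 8 were higher at E18.5 in MGE cells and 4 in CGE cells. The part of these other cell types in the levels of the pallial factors was not tested.

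Neurons of the lateral eminence and striatum also carry Bcl11b. Among the CGE arrays, replicate 1 of each day had the highest mean over 8 measured genes of these regions. The mean was 8.80, 7.62 and 7.31 on replicates 1 to 3 at E18.5, and 7.83, 6.76 and 6.83 at E16.5. Isl1, a LIM-homeobox factor of striatal neurons, read 9.53 on CGE E18.5 replicate 1, against 4.37 and 4.43 on the other two. Isl1 was singled out after its values were seen. At E18.5, Meis2, Gsx2 and Tshz1 were instead highest on replicate 2, at 12.36, 6.46 and 9.80, against 12.07, 5.92 and 9.51 on replicate 1. At E16.5, Gsx2 was highest on replicate 3 and Rarb on replicate 2. The summed log2 level of the 8 measured genes was 51.6 to 53.5 in MGE cells at E18.5 and 49.0 to 49.9 in MGE cells at E14.5, against 58.5 to 70.4 in CGE cells at E18.5 and 54.1 to 62.7 in CGE cells at E16.5. Not all 8 followed the sum, as Tac1 was higher in MGE than in CGE cells, by 0.52 at E18.5 and by 2.40 on the earlier days. Without CGE E18.5 replicate 1, Emx2 differed by -1.97 between MGE and CGE cells at E18.5 (adjusted p = 0.0409), and Neurog2 was called as lower in MGE cells (-0.99, adjusted p = 0.0424, limma).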

How the data were processed

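RNA of fluorescence-sorted cortical cells was amplified (NuGEN Ovation Pico) and hybridised to 12 Affymetrix Mouse430_2 arrays, 3 per group, which the labels call biological replicas. The sources used here do not give the number of embryos per array. The log2 values were deposited by the authors after background correction and normalisation with Bioconductor. The submitters' processing notes name MAS5 without a version, so the normalisation is not settled. The deposited table held 27094 probe sets. Of these 34 controls were left out, and 571 probe sets with several symbols and 4150 with none in the platform annotation were not used.

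Group means were fitted over the 12 arrays with the limma package (version 3.58.1, R 4.3.3) by lmFit and eBayes, two-sided, with 8 residual degrees of freedom and no filter on low values. Each gene was represented by its probe set with the highest mean. The number of arrays limits the precision. Differences were taken within 1 probe set. The 40th percentile is a common mark and does not make levels of different probe sets comparable.

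All members are named with every probe set. From other lists at most 4 called genes are named for a comparison, by size of the difference, and for each called member the 3 genes with the most similar levels among those above the 40th percentile on at least 3 arrays. Members and lists were chosen with earlier results of these data known. Deviations from the group means of arrays with the same replicate number correlated at -0.10 to 0.24, and 4 of 18 pairs exceeded 0.1, so the numbers were not taken to pair arrays. The fit was tested on simulated data. Alternatives were a filter on low values, 1 probe set per gene, an intensity trend, array weights, a replicate block, other scalings, pairwise fits, MGE E14.5 replicates 1 and 2 as 1 sample, and each array left out in turn. Promoter windows and loci came from RefSeq tables of GRCm38.p6.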

Additional observations from a re-analysis of the deposited data

Results flagged for a closer look

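Rnd2, a small GTPase that acts below Neurog2 in migrating pyramidal neurons, had a lineage difference, MGE minus CGE, of 0.29 at E18.5 and -0.87 on the earlier days, and this change of 1.16 passed the test (adjusted p = 0.0205, limma). Unc5d, a netrin receptor of upper-layer neurons, had a lineage difference of 0.58 at E18.5 and -0.32 on the earlier days, and this change of 0.90 passed as well (adjusted p = 0.037, limma), although all its values lay below the 40th percentile. The earlier difference holds both lineage and day.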

How the results depend on the processing

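The members' calls were few and hung on single arrays or settings, as given with each gene. Over 1010 combinations of a member difference and a setting, direction and side of the threshold held in 918, the call was lost in 28 and gained in 10, and the sign turned in 54, where no value was called. The replicate block left the number of called members at 0, 1, 2, 1 and 0 in the early lineage, late lineage, MGE maturation (E18.5 minus E14.5), CGE maturation (E18.5 minus E16.5) and change comparisons, and called 1718, 4856, 4013, 1623 and 2223 probe sets, against 1744, 4911, 4126, 1776 and 2086 without it.

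The filter on low values takes 6 of the 10 genes out of testing and left 0 members called in the late lineage, MGE maturation and CGE maturation comparisons. Pairwise fits called 0 members in the late lineage and in the CGE maturation comparison, where 116 probe sets were called. Array weights called 4 members in MGE maturation and 0 in CGE maturation, with 7788 and 930 probe sets called, and 3521 in the early lineage comparison. The intensity trend called 2 members and quantile normalisation 0 in CGE maturation. With MGE E14.5 replicates 1 and 2 as 1 sample, 0 members were called in MGE and in CGE maturation, and 1035, 2649 and 1369 probe sets in the early lineage, MGE maturation and change comparisons. With 1 probe set per gene fewer were tested, and 983, 2544, 2306, 1018 and 987 were called in the 5 comparisons.

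With each array left out, the members called numbered 0 to 2 in the late lineage, 0 to 4 in MGE maturation, 0 to 2 in CGE maturation and 0 to 1 in the change comparison, and the probe sets called 1026 to 1920, 3446 to 5001, 2581 to 4453, 470 to 2142 and 1325 to 2205 in the 5 comparisons. These fits, like the main fit, take 1 spread from all groups together.

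Signs turned for small differences. Array weights gave 0.18 for Neurog2 in the early lineage comparison, -0.12 for Lhx2 in MGE maturation, 0.023 for Bcl11b in CGE maturation and -0.30 for Neurod6 in the change. Quantile normalisation gave -0.015 for Emx1 in the late lineage comparison, -0.091 for Emx2 in MGE maturation, 0.010 for Bcl11b in CGE maturation and -0.055 for Neurod6 in the change. Median centring gave -0.021 for Bcl11b in the late lineage comparison, -0.0055 for Emx2 in MGE maturation, 0.020 for Bcl11b in CGE maturation and -0.029 for Neurod6 in the change. MGE E14.5 replicates 1 and 2 as 1 sample gave -0.13 for Neurod6 in the early lineage comparison and 0.074 for Neurod2 in MGE maturation.

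With each array left out, early lineage differences ran from -0.46 to 0.030 for Lhx2, -0.58 to 0.069 for Neurod2, -0.21 to 0.73 for Neurod6 and -0.33 to 0.17 for Neurog2. Late lineage differences ran from -0.058 to 0.13 for Bcl11b, -0.12 to 0.18 for Neurod1 and -0.22 to 0.59 for Neurod6. MGE maturation ran from -0.13 to 0.56 for Lhx2, -0.092 to 0.11 for Emx2 and -0.50 to 0.19 for Neurod2, and CGE maturation from -0.13 to 0.064 for Bcl11b. The change ran from -0.69 to 0.096 for Lhx2, -0.11 to 0.0015 for Emx1, -0.53 to 0.44 for Neurod6, -0.10 to 0.71 for Tbr1 and -0.36 to 0.14 for Eomes. Except for the smaller number tested under the filter and with 1 probe set per gene, the cause of these shifts was not tested. The files hold no detection calls, so signal over background was not assessed for dim genes.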
